A study of Mus musculus with 52 samples.

Results

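The transcripts of 8 genes of interleukin-6 (IL-6) type signalling were followed through liver regrowth in the mouse. The genes were the receptors Il6ra, Il6st, Osmr and Lifr, the kinase Jak2, the transcription factor Stat3, the feedback inhibitor Socs3 and, as a neighbouring cytokine receptor, Il1r1. Among the probe sets annotated to 1 of these genes alone, the brightest by its mean over the 52 arrays stood for the gene. The 8 are part of 18195 genes measured. The 8 genes together had 23 such probe sets, and some of the other sets are given beside the chosen one.

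Livers came from male C57Bl6/N mice, labelled 8 to 12 weeks old in every group, fed a standard diet. For the 3-month group this cannot be the age at sampling. Most of the liver was removed by partial hepatectomy, after which the remnant grows back. There were 47 arrays from operated mice, in 11 groups by the time since surgery. The group sizes were 4 arrays for each of 6 hours, 12 hours, 48 hours, 3 days, 4 days, 1 week and 4 weeks, 3 for 1 hour and for 3 months, 11 for 24 hours and 2 for 2 weeks. They were set against 5 arrays from untreated control mice. Sham operations were not analysed here, and effects of surgery, lost tissue, time of day and, at late times, greater age cannot be told apart. Nothing in the labels tells whether each array of a group had its own mouse, so the p-values measure only the spread between arrays, which may be technical. Whole liver was used, so more transcript per cell and more cells of a type that carries it cannot be told apart.

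IL-6 binds the receptor chain encoded by Il6ra, and this pair engages gp130, the signalling chain encoded by Il6st that the whole family shares. Oncostatin M and leukaemia inhibitory factor (LIF) signal through gp130 joined to the chains encoded by Osmr and Lifr. The receptor-bound kinases JAK1, JAK2 and TYK2 then phosphorylate STAT3, which enters the nucleus and turns on acute-phase genes and Socs3. The SOCS3 protein binds gp130 and JAKs and ends the signal. In the liver this route drives the acute-phase response, and it is known as part of the priming phase of regeneration after hepatectomy.

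Values are log2 expression as deposited. The median of all probe sets lay between 3.89 and 4.10 on every array, and a group mean not above that median was treated as background, where a fold is only a lower bound. Changes are log2 differences between group means ± SE from a limma fit over all 52 arrays, and a gene was called at a Benjamini-Hochberg adjusted p under 0.05 over the 18195 genes. The defining hepatocyte transcripts, such as Alb, were bright in all 12 groups. Some arrays stood apart. The 1-week replicate 4 and 4-week replicate 1 correlated better with the 12-hour group than with their own, as 17 of 52 arrays did with some other group. The 24-hour replicates 9 to 11, although labelled male, carried Xist signal up to 9.48. Hybridization controls had means of 9.51 to 10.2 in the operated groups, against 10.7 ± 0.29 (SD, n = 5) in untreated liver. The Gapdh 3′ minus 5′ difference, a sign of RNA quality, had means of 0.65 to 1.10 in the operated groups, against 1.61 ± 0.57 in untreated liver (SD, n = 5). The poly-A controls had means of 4.35 to 5.65 in the operated groups, against 5.79 ± 0.34 in untreated liver (SD, n = 5). They were 4.53, 4.35, 4.86 and 4.67 at 3 days, 4 days, 1 week and 3 months, and 5.62 and 5.65 at 24 and 48 hours. The part of these control signals in the results was not tested beyond the fits with them as covariates given below.

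Osmr, the chain that makes oncostatin M signalling possible, changed from background to a clear signal within 6 hours. Its log2 values were 7.05, 7.40, 7.43 and 7.37 at 6 hours, against 3.43, 4.34, 3.76, 4.05 and 4.35 in untreated liver. At 1 hour they were 3.16, 4.09 and 3.69, all at the untreated level or below it. The fitted change at 6 hours was 3.33 ± 0.58 (limma adjusted p = 1.85e-05), which corresponds to at least an 8.80-fold increase when each untreated array is set at the higher of its own value and that array's median. At 12 hours the 4 arrays lay between 6.35 and 7.06, for at least a 6.17-fold increase over untreated liver (adjusted p = 0.000168).

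From 24 hours to 1 week every array of Osmr lay above every untreated one, with wide spread. The 11 arrays at 24 hours ran from 4.80 to 7.52 with a median of 5.64, all above the highest untreated value, and the change was 1.96 ± 0.46 (limma adjusted p = 0.00102). Its level at 24 hours was lower than at 6 hours by 1.37 ± 0.50 on the log2 scale (limma adjusted p = 0.0419). The 48-hour arrays at 5.63, 5.18, 5.26 and 5.57 gave a change of 1.42 that just missed the threshold (limma adjusted p = 0.0542). At 3 days the values were 5.72, 6.27, 5.34 and 6.31, for at least a 3.33-fold increase (adjusted p = 0.00697). At 4 days they were 5.07, 7.29, 5.29 and 6.70, for at least a 3.77-fold increase (adjusted p = 0.00449). The 1-week call rested on replicate 4, since the values were 4.61, 4.67, 5.91 and 8.40 and the change of 1.91 became 1.07 (adjusted p = 0.129) without that array. At 2 weeks Osmr was at 4.60 and 3.24, back at background. At 4 weeks replicate 1 stood at 7.09 and the other arrays between 3.58 and 4.16.

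**Figure D1:**
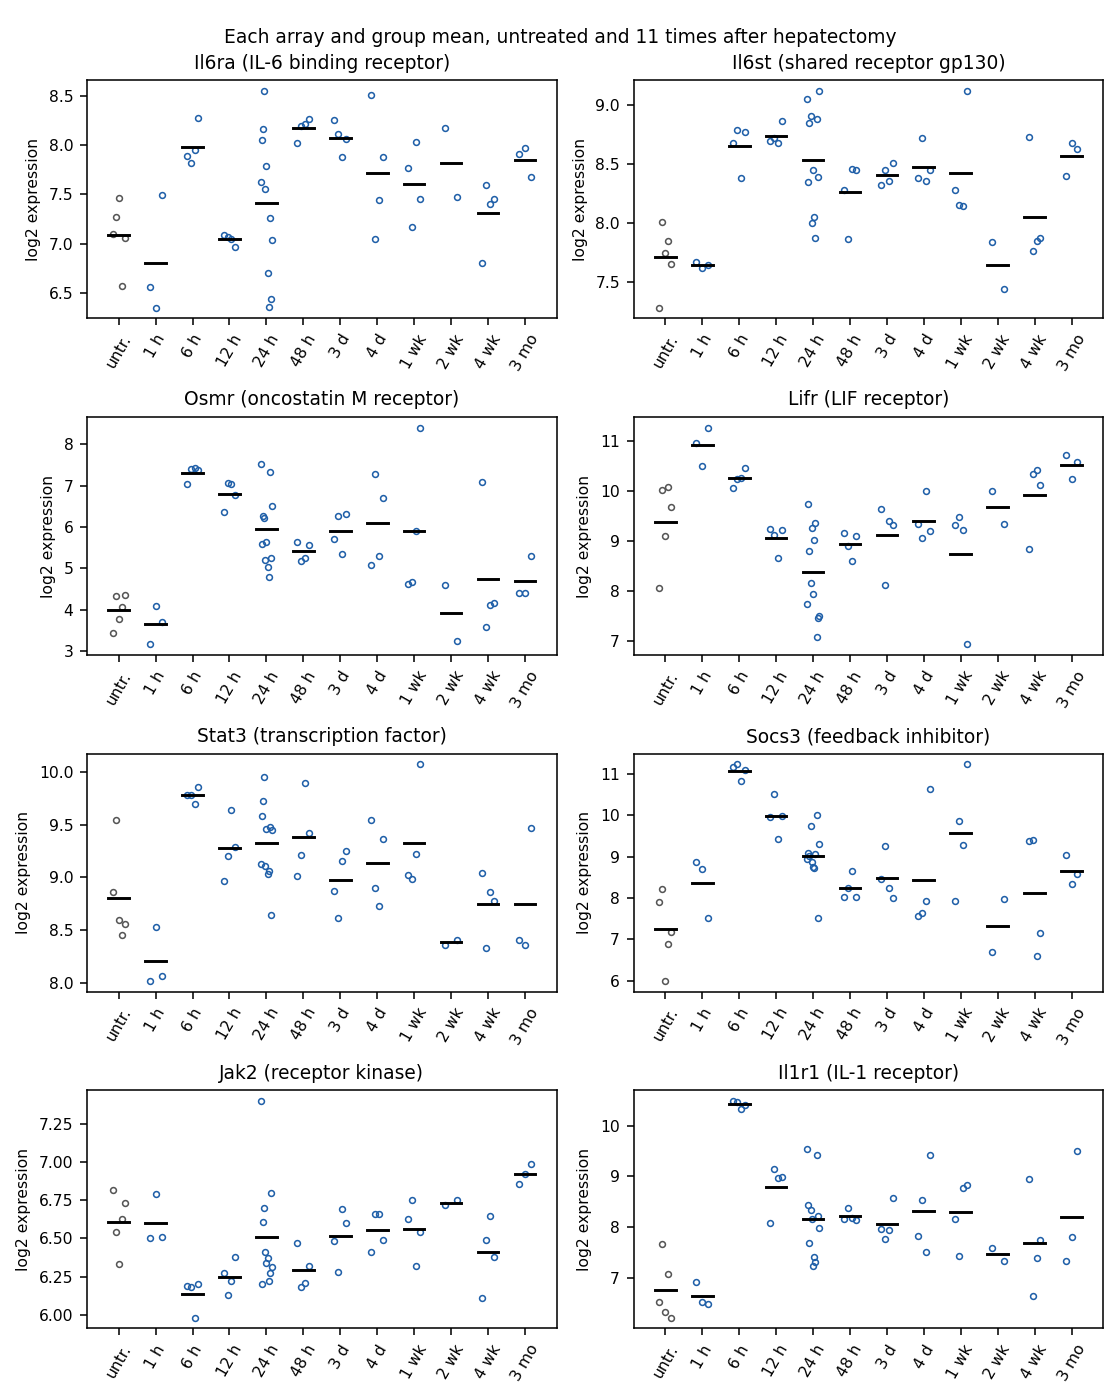
Log2 expression of the 8 genes on each array (points) with group means (lines), from untreated liver on the left to 3 months on the right. At 6 hours the arrays of Osmr, Socs3 and Il1r1 lie above every untreated array with little spread, while those of 1 week and 4 weeks are spread widely.

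Il6st, which encodes the shared chain gp130, was higher at 6 and 12 hours and, on the chosen set, at several later times. Its values were 8.68, 8.79, 8.38 and 8.77 at 6 hours, against 7.28, 8.01, 7.74, 7.85 and 7.65 in untreated liver, and the groups did not overlap. At 1 hour they were 7.67, 7.62 and 7.64, inside the untreated range. The change was 0.95 ± 0.21 at 6 hours (limma adjusted p = 0.000607) and 1.04 ± 0.21 at 12 hours (limma adjusted p = 0.00016), when the 4 arrays lay within 8.68 to 8.87. It was still 0.83 ± 0.17 at 24 hours (limma adjusted p = 0.000174), with 9 of 11 arrays above all untreated ones. Smaller increases were called at 48 hours (0.56), 3 days (0.70), 4 days (0.77) and 1 week (0.72). The 1-week increase was 0.48 (adjusted p = 0.0806) without replicate 4, which stood at 9.12 while the other 3 arrays lay between 8.14 and 8.28. At 2 weeks Il6st stood at 7.84 and 7.44, within the untreated range. At 3 months it was 8.40, 8.68 and 8.63, all above untreated liver, a change of 0.86 ± 0.23 (limma adjusted p = 0.00429). The other bright set of Il6st did not show the later increases. On that set the changes were 0.75 at 6 hours (limma adjusted p = 0.0599) and 0.72 at 12 hours, which was called, then -0.02 at 24 hours, -0.20 at 48 hours, 0.01 at 3 days, -0.07 at 1 week and -0.02 at 3 months, none of them called.

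Il6ra, the IL-6 binding chain, was called higher at 6 hours, 48 hours and 3 days and not at the times between. Its 6-hour arrays at 7.89, 7.82, 7.95 and 8.28 lay above the untreated arrays at 7.10, 7.27, 7.46, 6.57 and 7.06, and the change was 0.89 ± 0.30 (limma adjusted p = 0.028). At 12 hours it stood at 7.09, 7.07, 7.05 and 6.97, again within the untreated range. It was highest at 48 hours, at 8.02, 8.20, 8.22 and 8.27, with a change of 1.08 ± 0.30 (limma adjusted p = 0.00586), and at 3 days, at 7.88 to 8.26, with a change of 0.98 ± 0.30 (limma adjusted p = 0.0092). The steps between these times were not called, with limma adjusted p of 0.0543 for 12 against 6 hours, 0.454 for 24 against 12 hours and 0.0774 for 48 against 24 hours.

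The 24-hour arrays of Il6ra fell into separate ranges by replicate number. Replicates 1 to 6 lay between 7.56 and 8.55 and replicates 7 to 11 between 6.36 and 7.26. Against untreated liver the change was 1.00 (adjusted p = 0.000506) with replicates 1 to 4 as the 24-hour group and -0.34 (adjusted p = 0.278) with replicates 7 to 11. Over all 11 arrays it was 0.32 (limma adjusted p = 0.335), so the 24-hour level of Il6ra depended on which arrays stood for that time.

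Lifr, the chain that binds LIF, gave different patterns from its pair of bright probe sets. On the chosen set its values at 1 hour were 10.97, 10.51 and 11.27, against 8.05, 10.03, 9.10, 10.08 and 9.69 in untreated liver. All 3 arrays lay above every untreated one, yet the change of 1.53 ± 0.49 missed the threshold (limma adjusted p = 0.0614). At 6 hours the arrays were still at 10.06 to 10.46. By 24 hours the range was 7.07 to 9.74 with a median of 8.16, a change of -1.02 ± 0.36 against untreated liver (limma adjusted p = 0.0287). For 24 hours against 6 hours the change was -1.88 ± 0.40 (limma adjusted p = 0.00035) on the chosen set, against 0.26 (adjusted p = 0.542) on the second bright set and 0.12 (adjusted p = 0.737) on a dim set. The 24-hour call was lost without the 3 arrays with Xist signal (-0.63, adjusted p = 0.167), which lay at 7.07 to 7.50.

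The second bright set of Lifr was lower at 6 hours already, at 8.02, 8.30, 8.11 and 8.28, against 9.11, 9.41, 9.03, 10.16 and 9.77 in untreated liver. On that set the changes were -1.32 ± 0.28 at 6 hours (limma adjusted p = 0.000414) and -1.31 at 12 hours, -1.06 at 24 hours, -1.03 at 3 days and -1.18 at 1 week, all called, while 1 hour gave -0.17. At 6 hours the change was 0.86 on the chosen set, which was not called (limma adjusted p = 0.188) and became -0.00 (adjusted p = 0.998) with the hybridization controls as a covariate. The dim set gave -0.26 (limma adjusted p = 0.473) at that time, and the difference between the sets was not tested. The mouse liver is known to make a soluble LIF receptor from an alternative transcript, and the sources used here do not say which transcripts each set reads. Lifr was then at 10.72, 10.25 and 10.58 on the chosen set at 3 months, above every untreated array, without passing the test (1.12, limma adjusted p = 0.079), and the change was -0.32 (adjusted p = 0.856) with the hybridization covariate. The second set averaged 9.02 at 3 months, against 9.50 in untreated liver (-0.48, limma adjusted p = 0.245).

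**Figure D2:**
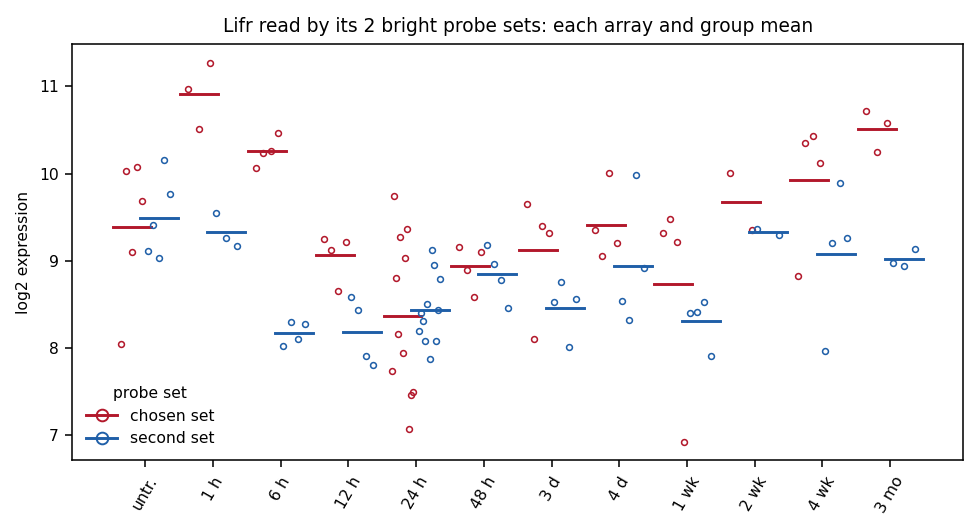
Log2 expression of Lifr by 2 probe sets on each array (open points) with group means (lines), from untreated liver to 3 months. At 6 hours the chosen set (red) lies at 10.06 to 10.46 and the second set (blue) at 8.02 to 8.30.

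Jak2, a kinase bound to gp130, changed least, its group means spanning 0.79. Its 6-hour arrays at 6.19, 6.18, 5.98 and 6.20 lay below all 5 untreated ones, which ran from 6.33 to 6.82. The change was -0.48 ± 0.15 at 6 hours (limma adjusted p = 0.0166), and by 24 hours the level was 0.38 ± 0.13 above that at 6 hours (limma adjusted p = 0.0315). At no other time was Jak2 called against untreated liver on this set. A dimmer set of the gene was higher at 3 days (0.50, adjusted p = 0.014), 1 week (0.56, adjusted p = 0.00599) and 3 months (0.66, adjusted p = 0.00526).

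Stat3, the factor that JAK kinases activate, rose at 6 hours. Its values were 9.78, 9.78, 9.70 and 9.86 at 6 hours, against 8.86, 9.54, 8.60, 8.46 and 8.56 in untreated liver, with no overlap. The change was 0.98 ± 0.24 (limma adjusted p = 0.0019). At 1 hour the arrays stood at 8.02, 8.53 and 8.07, so that 6 hours exceeded 1 hour by 1.57 ± 0.28 (limma adjusted p = 5.64e-05). At 24 hours the arrays ran from 8.64 to 9.95, for a change of 0.52 ± 0.19 (limma adjusted p = 0.0341) with 3 of 11 arrays above every untreated one. No later time was called on this set, although the other bright set of Stat3 was also called at 12 hours (0.66), 48 hours (0.72), 4 days (0.50) and 1 week (0.73). These are transcript levels, and the phosphorylation that makes STAT3 active was not measured.

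Socs3, the inhibitor that STAT3 induces, rose at 6, 12 and 24 hours and at 1 week. Its values at 6 hours were 11.15, 11.22, 10.83 and 11.09, against 7.91, 8.22, 6.00, 6.90 and 7.18 in untreated liver. The change was 3.83 ± 0.55, a 14.2-fold increase (limma adjusted p = 7.07e-07). At 1 hour the arrays were at 8.86, 8.70 and 7.53, with 2 of 3 above all untreated arrays and a change of 1.12 (limma adjusted p = 0.336). It stood at 9.42 to 10.51 at 12 hours (2.73, limma adjusted p = 0.000134) and at 7.53 to 10.01 at 24 hours (1.76 ± 0.44, limma adjusted p = 0.00182). From 6 to 24 hours the level dropped, with a change of -2.07 ± 0.48 for 24 hours against 6 hours (limma adjusted p = 0.00105).

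Late values of Socs3 scattered. At 1 week they were 7.92, 9.85, 9.29 and 11.22, an increase of 2.33 (limma adjusted p = 0.000893) that remained called without replicate 4 (1.78, adjusted p = 0.0144). At 4 days 1 array, replicate 4, was at 10.63 and the other 3 at 7.56 to 7.93, and the time was not called. At 3 months they were 9.04, 8.33 and 8.57, all above untreated liver, without passing the test (1.40, limma adjusted p = 0.0686). The 4-week arrays also split, 9.37 and 9.39 in replicates 1 and 2, and 6.59 and 7.16 in replicates 3 and 4. All 3 probe sets of Socs3 were called higher at the same 4 times, with 6-hour changes of 3.83, 3.69 and 2.62.

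Promoter sequences are shown for Socs3 and Osmr because both rose sharply at 6 hours and each holds a match to the STAT or AP-1 motif. They come from RefSeq (GRCm38.p6) and run from 250 bases before to 50 bases after the annotated start, on the gene's own strand. Socs3 lies at chr11:117966079-117970336 and Osmr at chr15:6813568-6874968, both on the minus strand, and the starts used lie inside these spans. Capitals mark this match alone, which is TTCNNNGAA (the STAT motif) in Socs3 and TGANTCA (the AP-1 motif) in Osmr. Both sequences also hold GC boxes (GGGCGG on either strand), which are not marked.
Socs3, chr11:117969317-117969616, minus strand: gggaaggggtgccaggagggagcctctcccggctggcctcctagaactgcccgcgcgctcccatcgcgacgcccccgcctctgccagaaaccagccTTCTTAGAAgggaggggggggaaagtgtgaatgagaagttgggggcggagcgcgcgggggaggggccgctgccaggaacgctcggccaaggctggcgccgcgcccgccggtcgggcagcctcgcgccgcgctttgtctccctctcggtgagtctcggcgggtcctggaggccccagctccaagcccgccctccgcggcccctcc
Osmr, chr15:6874264-6874563, minus strand: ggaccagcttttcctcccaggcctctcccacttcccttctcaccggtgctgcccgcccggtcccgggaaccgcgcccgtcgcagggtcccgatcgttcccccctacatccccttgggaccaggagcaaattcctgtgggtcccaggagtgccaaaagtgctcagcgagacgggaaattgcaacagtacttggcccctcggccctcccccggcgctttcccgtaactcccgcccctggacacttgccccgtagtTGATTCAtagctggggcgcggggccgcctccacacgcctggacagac

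The Socs3 match TTCTTAGAA began at base -154, counted from the start site, and the Osmr match TGATTCA began at base 4 of the transcript. The motifs were searched on both strands, and neither match overlaps another motif searched. Of 32851 mouse promoters of the same length, 8.30% held the STAT motif and 7.81% the AP-1 motif. The 8 genes had 10 such promoters, of which 1 held the STAT motif, 1 the AP-1 motif, 0 a STAT motif with 4 spacer bases, 0 the CRE (TGACGTCA) and 0 a TATAAA box. A GC box (GGGCGG) was in 7 of the 10, against 35.7% of all promoters. A match is a run of letters, not a bound site.

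Il1r1 encodes the receptor for IL-1, a cytokine that acts beside IL-6 in the acute-phase response of hepatocytes. It peaked at 6 hours, with values of 10.48, 10.46, 10.33 and 10.40, against 6.53, 7.66, 6.34, 7.07 and 6.22 in untreated liver. The change was 3.65 ± 0.42, a 12.6-fold increase (limma adjusted p = 9.48e-09). At 1 hour it was at 6.92, 6.53 and 6.49, inside the untreated range. By 12 hours it had dropped to 8.09, 9.14, 8.96 and 8.98, a change of -1.62 ± 0.45 against 6 hours (limma adjusted p = 0.0126) that was -1.39 (adjusted p = 0.0664) without 12-hour replicate 1. It was still higher than untreated liver at 12 hours (2.03) and 24 hours (1.40 ± 0.34, limma adjusted p = 0.00139), where 8 of 11 arrays exceeded all untreated ones.

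Il1r1 stayed higher up to 1 week. At 48 hours its values were 8.16, 8.38, 8.19 and 8.15, a change of 1.46 (limma adjusted p = 0.00762), and changes of 1.30, 1.56 and 1.54 were called at 3 days, 4 days and 1 week. The 2-week arrays at 7.60 and 7.34 lay within the untreated range, and the 4-week arrays ran from 6.64 to 8.95, neither time being called. At 3 months the values were 7.33, 7.80 and 9.49, and the change of 1.44 ± 0.46 (limma adjusted p = 0.0154) became 0.80 (adjusted p = 0.235) without replicate 3. Il1r1 lies at chr1:40222480-40316201 (GRCm38.p6, plus strand), and neither of its RefSeq promoters held the STAT, AP-1 or CRE motif.

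**Figure D3:**
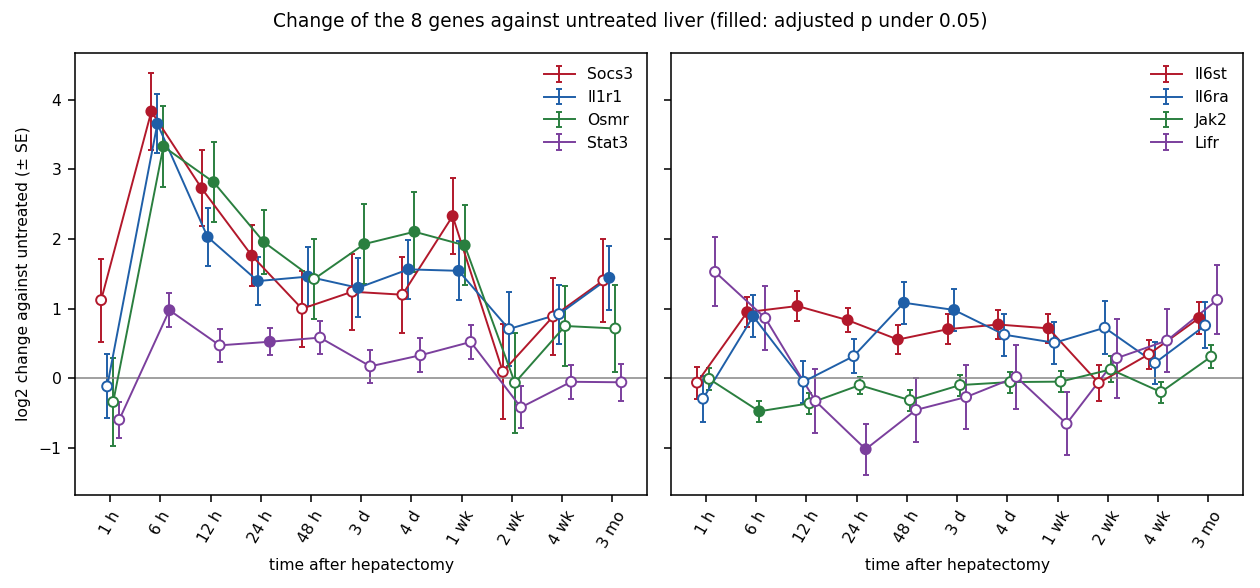
Log2 change against untreated liver (± SE) of the 8 genes at 11 times, with filled points where the limma adjusted p was under 0.05. Socs3, Il1r1 and Osmr peak at 6 hours at 3.83, 3.65 and 3.33, and Jak2 is lower at that time (-0.48).

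The 8 genes were called most often at 6 hours. Against untreated liver 7 of 8 were called at 6 hours, 6 higher and 1 lower, when 22.0% of all genes were called. At 1 hour 0 of 8 were called by limma, with 5.04% of all genes called and 2 of the 8 (Lifr and Stat3) at an unadjusted p under 0.05. At 6 hours 11.4% of all genes were called higher. At 12 hours 4 of 8 were called, all higher, with 29.9% of all genes called and 17.9% called higher. At 24 hours 6 of 8 were called (5 higher, 1 lower), with 31.7% of all genes called and 18.9% called higher. The median change of the 8 was 0.96 at 6 hours, when that of all genes was -0.02.

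After the first day the count of the 8 genes was smaller, and each call was an increase. It was 3 at 48 hours (30.8% of all genes called, 17.4% higher), 4 at 3 days (39.4%, 21.7% higher), 3 at 4 days (32.8%, 18.8% higher) and 4 at 1 week (36.7%, 21.8% higher). At 2 weeks 0 were called by limma (3.41% of all genes), with 0 at an unadjusted p under 0.05, and only 2 arrays stood for that time. At 4 weeks 0 were called (14.7% of all genes), with Il1r1 alone at an unadjusted p under 0.05, and at 3 months 2 were called, Il6st and Il1r1 (30.1% of all genes). All 3 arrays of 3 months lay above every untreated array for 6 of the 8 genes (Il6ra, Il6st, Osmr, Lifr, Socs3 and Jak2), of which Il6st alone was called. Of all genes 19.0% lay so. At 6 hours all 4 arrays lay above every untreated array for 6 of the 8 genes (14.6% of all genes) and below for 1 (15.1% of all genes). With the hybridization controls as a covariate, 0 of the 8 were called at each of 3 days, 4 days, 1 week and 3 months. The share of all genes called in the fits with a covariate is not given here. The counts of those fits therefore do not set the 8 genes apart. Under the hybridization covariate Osmr changed by 2.57 at 3 days (1.93 without it) and Il1r1 by 1.91 at 4 days (1.56 without it). Socs3 changed by 2.41 at 1 week (2.33 without it) and Il6st by 0.81 at 3 months (0.86 without it). These are examples of the changes called without the covariate. All 7 calls at 6 hours remained with it. With the poly-A controls as a covariate Il6ra alone was called at each of these 4 late times, and the other changes called without it were smaller, such as 1.09 for Osmr at 3 days, 0.65 for Il1r1 at 4 days, 1.58 for Socs3 at 1 week and 0.59 for Il6st at 3 months. By the F test over the 11 times, 8 of 8 genes were called, with 64.6% of all genes called.

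Between neighbouring times the sharp step was from 1 to 6 hours. There 6 of the 8 genes were called, all higher (10.9% of all genes called, 4.45% higher), and 12 hours against 6 hours gave 1 call, that of Il1r1 (9.38% of all genes called). The other 8 steps gave 0 calls among the 8 genes by limma. All genes called made up 9.72% for 24 hours against 12 hours, 5.48% for 48 against 24 hours, 0.0440% for 3 days against 48 hours, 0% for 4 against 3 days and 0.0220% for 1 week against 4 days. They made up 0.594% for 2 weeks against 1 week, 0.00550% for 4 against 2 weeks and 2.39% for 3 months against 4 weeks. At an unadjusted p under 0.05 stood Socs3 for 24 against 12 hours, Il6ra for 48 against 24 hours, 4 genes for 2 weeks against 1 week and 2 for 3 months against 4 weeks. From 6 to 24 hours 5 of 8 were called, Jak2 higher and Osmr, Lifr, Socs3 and Il1r1 lower, with 22.2% of all genes called. For 1 week against 24 hours and 3 months against 1 week, 0 of 8 were called by limma (13.6% and 0.808% of all genes), with 0 and 3 genes at an unadjusted p under 0.05. Ordering the 12 group means of each gene gave 11 neighbouring pairs, and few pairs were free of overlap between their arrays. They were 6 hours above 12 hours for Socs3 and for Il1r1, 3 months above untreated liver for Osmr and 3 months above 2 weeks for Jak2. The Osmr pair was barely apart, at 4.39 and above against 4.35 and below, and untreated Osmr was background. For Jak2 only 2 arrays stood for 2 weeks. The share of such pairs among all genes is not given here.

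No ligand transcript was seen to rise with the receptors at 6 hours. The group means of Il6 and Lif were background at every time, so a rise below detection could not be seen. Il6 was below the median of the arrays at all times but on 1 array, 1-week replicate 4 at 4.88, with 4-day replicate 4 next at 3.54. At 6 hours its change was -0.06 (limma adjusted p = 0.926). Osm lay between 3.55 and 4.62, near the median, and Lif between 2.58 and 4.18 over all arrays. Their 6-hour changes were 0.20 and 0.10, neither called, and Osm was called at 1 week only (-0.34, limma adjusted p = 0.0349). Il1b, the ligand of Il1r1, had a 6-hour change of 0.43 (limma adjusted p = 0.407) and was called only at 1 week (0.87, limma adjusted p = 0.0339), when replicate 4 stood at 7.31. Of 6 ligand genes measured 4 were called at 1 or more times, as 71.6% of all genes were, with Clcf1 at -0.63 and Il11 at 0.55 at 3 months and Ctf1 at -0.55 at 6 hours. Ligand protein and ligand made outside the liver were not measured.

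**Figure D4:**
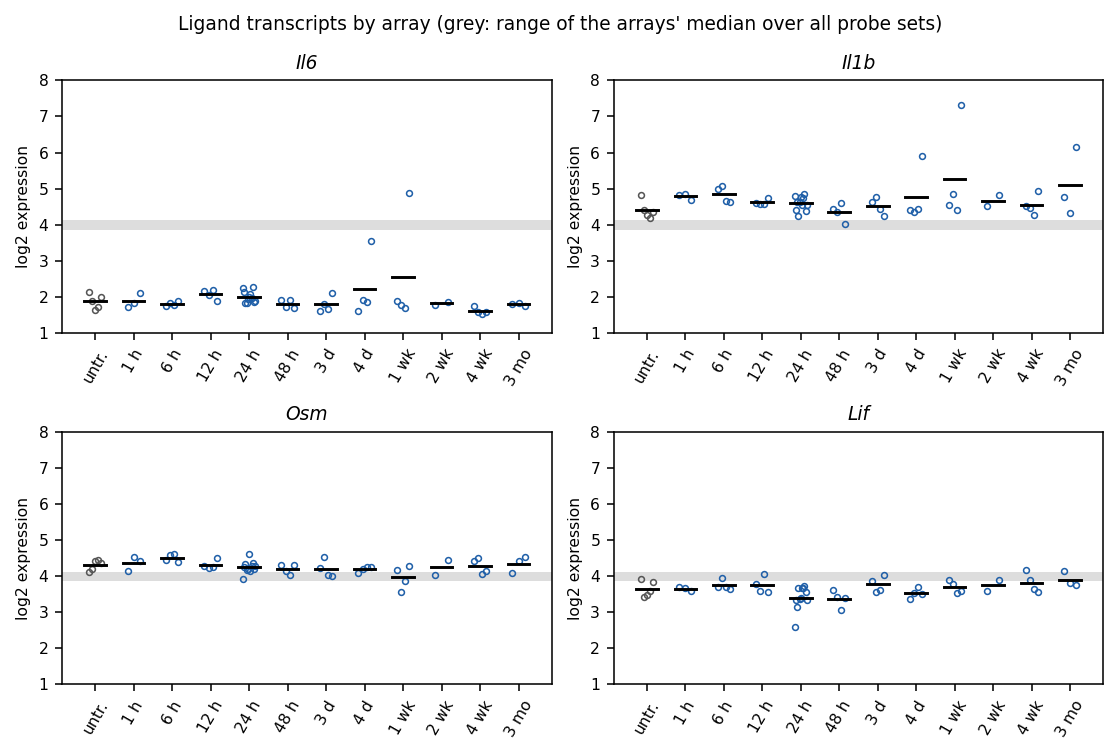
Log2 expression of Il6, Osm, Lif and Il1b on each array (points) with group means (lines), from untreated liver to 3 months, and the range of the arrays' medians (3.89 to 4.10) in grey. Only Il6 and Il1b show high single arrays, chiefly 1-week replicate 4 at 4.88 and 7.31.

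Other genes of the pathway were read as lists chosen with earlier results of these data known, so their counts describe and do not support a direction. At 6 hours 12 of 16 genes known as STAT3 responders were higher and 0 lower, when 11.4% of all genes were called higher. Lcn2, which encodes a protein that binds bacterial iron carriers, stood at 12.55 to 12.63 at 6 hours, against 2.88 to 6.39 in untreated liver, and its largest change was 8.85 at 24 hours (limma adjusted p = 8.6e-11). The acute-phase protein gene Saa2 changed by 6.38 at 24 hours (limma adjusted p = 1.59e-07) and Saa1 by 5.21 at 12 hours (limma adjusted p = 4.72e-06). In the other direction Hamp, which encodes the iron hormone hepcidin, changed by -1.65 at 48 hours (limma adjusted p = 0.0163).

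Signalling parts other than the 8 genes did not move together. Among 8 other JAK kinases and STAT factors, 5 were lower and 1 higher at 6 hours, when 10.5% of all genes were called lower. Stat6 and Stat5b, which serve other cytokines and growth hormone, changed by -1.28 ± 0.20 (limma adjusted p = 2.58e-06) and -1.27 ± 0.20 (limma adjusted p = 3.05e-06), while Jak1, another gp130 kinase, was higher by 0.89 at 6 hours and by 0.92 at 1 week (limma adjusted p = 0.000105). Of 15 other inhibitors and phosphatases 6 were higher and 3 lower at 6 hours, when 11.4% of all genes were called higher and 10.5% lower. Ptpn2, a phosphatase that acts on JAKs and STATs, was at 9.56 to 9.76 at 6 hours, against 7.55 to 7.96 in untreated liver (1.95 ± 0.28, limma adjusted p = 7.94e-07). Pias2, of the family of protein inhibitors of activated STATs, was higher by 1.28 at 12 hours, Pias3 was lower with -1.14 at 6 hours, and Cish, a SOCS-family inhibitor, was higher by 1.60 at 3 months.

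At 6 hours, when 11.4% of all genes were called higher, 3 of 10 other genes of the IL-1 system were higher and 0 lower. They were Irak2 (1.56 ± 0.24, limma adjusted p = 3.46e-06) and Myd88 (1.33), which carry the signal inward, and Il1r2 (1.53), a decoy receptor. The accessory chain Il1rap was lower at 24 hours, at 8.85 to 10.04 against 10.65 to 10.86 in untreated liver (-1.26 ± 0.21, limma adjusted p = 8.65e-06). Both proteases that shed cytokine receptors were called, Adam10 from 6 hours (0.53) and Adam17 from 12 hours (0.57). At 1 week, when 21.8% of all genes were called higher, both were called with changes of 0.74 and 0.88. Of 6 other receptors of related cytokines 3 were called at 1 or more times, against 71.6% of all genes. Lepr, the leptin receptor, was at 7.18 to 8.41 at 12 hours, against 5.07 to 5.49 in untreated liver (2.46 ± 0.56, limma adjusted p = 0.000655), and Ghr, the growth hormone receptor, changed by -1.53 at the same time (limma adjusted p = 0.000476). Csf3r, the receptor of a granulocyte growth factor, changed by -0.57 at 48 hours (limma adjusted p = 0.0163).

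**Figure D5:**
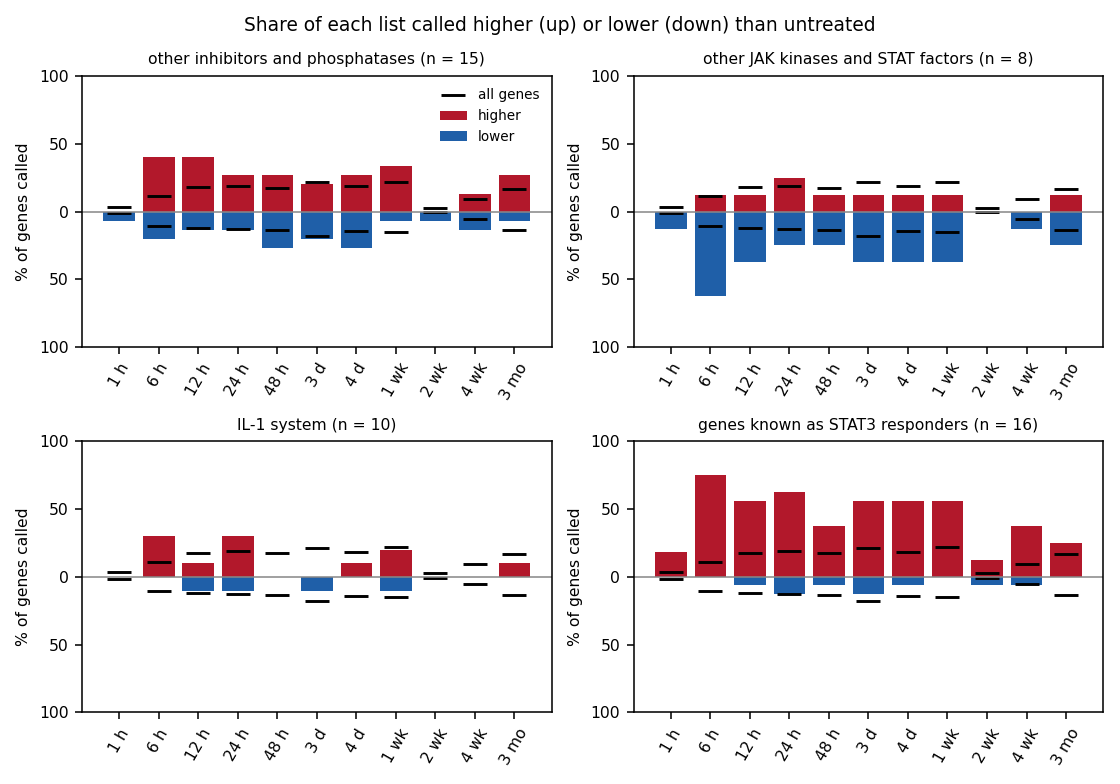
Percent of each pathway list called higher (up) or lower (down) than untreated liver at 11 times, with black dashes for the percent of all genes called in that direction. At 6 hours 12 of 16 STAT3 responder genes are called higher, and 5 of 8 other JAK and STAT genes are called lower.

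Patterns most like each gene were sought among 3994 genes by Pearson's r over the 12 group means, as a description without a p, since the points share arrays and normalization. Il1r1 was most like Slc39a14, a zinc and iron transporter (r = 0.98), then Ptpn2 (r = 0.96). Socs3 was most like Skil (r = 0.97), Osmr most like Thbd, which encodes thrombomodulin (r = 0.97), and Il6st most like Plxnc1 (r = 0.96). Stat3 was most like Ncoa5 (r = 0.96), Jak2 most like 1190005I06Rik (r = 0.93) and Lifr most like the complement gene C6 (r = 0.90). Il6ra had no close match, the highest being Lclat1 (r = 0.84). Over the 52 single arrays these values were lower, such as 0.92 for Il1r1 with Slc39a14, 0.88 for Osmr with Thbd, 0.71 for Socs3 with Skil and 0.56 for Il6ra with Lclat1. Among the 8 genes themselves Osmr ran most like Il1r1 and Stat3 (r = 0.90 each), while Jak2 had r = -0.69 with Stat3.

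Sums of markers of other liver cells moved too. Such a sum is led by its brightest markers and need not hold for each. At 6 hours Timd4 (Kupffer cells), Mpo (neutrophils), Itgam (monocytes) and Pecam1 (endothelial cells) were not above the arrays' median. The summed log2 level of 10 Kupffer cell markers ranged from 9.02 to 9.32 at 6 hours and from 10.15 to 11.90 at 1 week, against 7.68 to 8.72 in untreated liver. Of 7 neutrophil markers 5 were measured, and their summed level ranged from 7.70 to 8.62 at 6 hours, against 6.47 to 6.69 in untreated liver. The 8 endothelial markers ranged from 9.92 to 10.20 at 6 hours, against 8.61 to 9.57 in untreated liver. The 5 monocyte markers measured ranged from 8.67 to 9.49 at 6 hours, against 7.60 to 8.24 in untreated liver. Stellate cell markers ranged from 10.55 to 10.80 at 6 hours, against 10.23 to 11.13 in untreated liver. Their sums were higher later, at 11.41 to 11.74 at 3 days and 11.45 to 12.06 at 4 days. The 7 hepatocyte markers ranged from 16.05 to 16.09 at 6 hours, against 16.04 to 16.10 in untreated liver. At 1 week replicate 4 had the highest sums, 11.90 for Kupffer cells and 11.14 for neutrophils. The other 3 arrays lay at 10.15 to 10.59 for Kupffer cells, also above untreated liver, and at 6.55 to 7.08 for neutrophils. The part of these cells in the changes of the 8 genes was not tested.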

How the data were processed

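Liver RNA was read on 52 Affymetrix Mouse Genome 430 2.0 arrays, per the labels' protocols. The authors' deposited table holds log2 values per probe set, for which the submitters' processing notes name RMA and oligo 1.52.0. RMA equalizes the arrays' distributions, so a shift of most genes is hidden. The sources used here do not say whether all arrays were normalized in a single run. Of 45101 probe sets 34958 had 1 annotated gene, 932 several and 9211 none, and 18195 genes were tested. Symbols of 18033 genes came from a GRCm38.p6 gene table.

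With limma 3.58.1 in R 4.3.3, lmFit and eBayes were run on the 12 group means over all arrays. Tests were two-sided, adjusted by Benjamini-Hochberg over all genes and called under 0.05. The procedure was tested on simulated data. No arrays held identical values. The precision rests on the number of arrays. Motifs were searched in RefSeq promoters.

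The members and lists were chosen with earlier results of these data known. From each list the text named up to 3 called genes with the largest change and the largest in the rarer direction, and the 3 genes most like each member (group mean of at least 6, span of at least 1) were ranked. Il6, Osm, Lif and Il1b were always given. Lists also held Cntf, Il27, Il11ra1, Il1rl1 and Irak4, which were not analysed here. Of 9 other JAK kinases and STAT factors listed, 8 were measured. Replicate numbers did not pair arrays: 224 same-numbered pairs had a median correlation of -0.003, from -0.548 to 0.561.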

Additional observations from a re-analysis of the deposited data

Results flagged for a closer look

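Single arrays stood far from the rest of their group in 13 of 96 sets tested, each set being 1 of 12 genes in 1 group. Chance gives about 1 in 20 for independent sets, but these sets share arrays, so that rate is no measure here. In 1-week replicate 4, Il6st was at 9.12, Il6 at 4.88 and Il1b at 7.31, each far above the other 3 arrays, and Lifr at 6.93 was far below them. In 4-week replicate 1, Il6st was at 8.73 and Osmr at 7.09, with the other arrays at 7.76 to 7.87 and 3.58 to 4.16. In 4-day replicate 4, Socs3 was at 10.63, Il6 at 3.54 and Il1b at 5.89, with the other arrays at 7.56 to 7.93, 1.61 to 1.92 and 4.36 to 4.44. Within tight groups, Osmr was lowest in 6-hour replicate 1 at 7.05, Jak2 in 6-hour replicate 3 at 5.98 and Il1r1 in 12-hour replicate 1 at 8.09, and Osm was highest in 12-hour replicate 4 at 4.51. No cause was tested.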

How the results depend on the processing

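Of 45 called results, 15 stayed called under all 20 alternatives and 32 when each of the 52 arrays was left out in turn. The increases of Osmr, Socs3 and Il1r1 at 6 and 12 hours were among those that stayed in both. At 1 hour, where 0 of 8 genes were called, array weights gave 2, and 1 was called with a replicate block, with dim genes left out, with 24-hour arrays 1 to 4, 5 and 6 or 7 to 11 alone, without the arrays with Xist signal, without 7 arrays doubted in earlier work on these data or without 24-hour arrays 2 and 5. At 6 hours a change of at least 2-fold left 3. At 24 hours arrays 5 and 6 alone gave 0. At 48 hours the count was 5 with median centring, 24-hour arrays 5 and 6 or no doubted arrays, and 1 without untreated arrays 1 and 5. With the hybridization covariate 0 were called at 3 days, 4 days, 1 week and 3 months, and with the poly-A covariate 1 at each, with Osmr at 3 days at 2.57 and 1.09, and 1.93 without a covariate. The 3-day count was 2 after quantile normalization, at 2-fold or without untreated arrays 1 and 5, the 4-day count 1 without those, and the 1-week count 2 without doubted arrays. At 3 months it was 0 after quantile normalization or without untreated arrays 1 and 5, 1 at an adjusted p under 0.01 or at 2-fold, 4 with the 2 groups alone, median centring, the Gapdh covariate or no doubted arrays, and 5 with array weights or 24-hour arrays 5 and 6. The 10 steps gave 7 calls, and 14 with 2 groups alone, 17 with array weights, 11 with 24-hour arrays 7 to 11 and 13 without doubted arrays. The 3 wider steps gave 3 at an adjusted p under 0.01. The cause was not tested, and the share of all genes called under each alternative is not given here. Leaving out untreated arrays 1 and 5 was chosen after seeing the data. Other probe sets turned the sign of some calls. With a call of their own they did so for Lifr at 6 hours (-1.32, where the chosen set was not called) and Jak2 at 3 days (0.50) and 1 week (0.56, likewise). Without one, they gave 0.26 and 0.12 for Lifr at 24 against 6 hours. The second bright set of Il6st gave -0.02 at 24 hours, -0.20 at 48 hours, -0.16 at 4 days, -0.07 at 1 week and -0.02 at 3 months, and a dim set -0.17 at 48 hours, -0.27 at 3 days, -0.11 at 4 days and -0.14 at 1 week. Dim sets gave -0.04 for Il6ra at 3 days, -0.00 for Osmr at 4 days and -0.19 for Stat3 at 24 hours. The dim set of Il1r1 gave -0.09, -0.01, -0.02, -0.13, -0.08 and -0.05 at 6, 12 and 24 hours, 3 days, 4 days and 1 week, -0.13 for 6 hours against 1 hour, and 0.08 and 0.07 for 12 and 24 hours against 6 hours. Its group means of 1.66 to 1.86 were background at every time, so its signs give no direction. The same holds for the dim set of Osmr, at 2.70 at 4 days. With single arrays left out, counts ran from 0 to 1 at 1 hour, 5 to 7 at 6 hours, 4 to 5 at 12 hours, 4 to 6 at 24 hours, 2 to 5 at 48 hours, 3 to 5 at 3 days, 3 to 4 at 4 days, 2 to 5 at 1 week, 0 to 1 at 4 weeks and 1 to 3 at 3 months, 6 to 9 over the steps and 3 to 6 over the wider steps. At 2 weeks the count stayed 0, and by the F test 8. The replicate block changed no other count by over 1.5 times. After median centring the median change of all genes was 0.11 at 4 days, 0.15 at 1 week and 0.11 at 3 months.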
